A study of Mus musculus with 8 samples.

Results

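The 33 genes described here encode the enzymes of glycolysis with their isozymes, the glucose transporters GLUT1 (Slc2a1) and GLUT4 (Slc2a4), the lactate carriers MCT1 (Slc16a1) and MCT4 (Slc16a3), the enzymes that set fructose-2,6-bisphosphate, and the pyruvate dehydrogenase kinases. They were listed by name, and all 33 were found by gene symbol among the 49584 features of the deposited tables. The series sequenced total RNA from crude heart mitochondria of 8 mice and asked what loss of TEFM, an elongation factor of the mitochondrial RNA polymerase, does to gene expression. The 4 controls are titled L/L, with the genotype Tefm +/+, and the 4 knockouts are titled L/L, cre, with the genotype Tefm -/-. Both titles carry L/L, and the protocols describe 1 exon of Tefm flanked by loxP sites. Cre came from the promoter of muscle creatine kinase, a promoter of heart and skeletal muscle cells, so other cells of the heart keep the gene. The labels name no further treatment, and for age they give nothing. A preparation of crude mitochondria also holds RNA of other compartments, and all 33 genes are nuclear genes whose products work in the cytosol, the plasma membrane or, for the kinases of pyruvate dehydrogenase, in the mitochondrial matrix.

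Glycolysis splits glucose into pyruvate and yields ATP without oxygen. Pyruvate is then either reduced to lactate by lactate dehydrogenase or oxidised in mitochondria through pyruvate dehydrogenase, which the pyruvate dehydrogenase kinases switch off. Several steps have more than 1 isozyme, and the adult heart uses mainly the forms of striated muscle, such as GLUT4, hexokinase 2, phosphofructokinase M and enolase 3, while it takes most of its energy from fatty acids. Fetal hearts and many dividing cells rely more on GLUT1, hexokinase 1 and the widely expressed forms of the other enzymes.

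Library totals were 21108165 to 27403415 counts, and mtDNA took 72.3% to 74.0% of counts in controls and 38.7% to 59.3% in knockouts. Knockout replicate 1 stood apart with the 59.3%, and the other knockouts had at most 44.2%. Tefm had 106 to 144 counts in controls and 166 to 245 in knockouts (log2 fold change 0.14, SE 0.11, edgeR adjusted p = 0.324). This sum over the whole gene does not show whether 1 exon is missing. Levels below are CPM, that is counts scaled to the library size after TMM, in the order of replicates 1 to 4. TMM sets the scale so that most genes are level between libraries. A rise or fall is therefore relative to the body of nuclear genes. With library totals as the only scale the median gene moved up by 0.99 on the log2 scale. Fewer cells of a type and less RNA per cell cannot be told apart in such bulk samples.

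Of the 33 genes 32 had enough counts for edgeR's quasi-likelihood test, in which 17 rose and 8 fell in knockouts at an adjusted p under 0.05 over all 17891 genes tested, and 7 did not pass. Over all genes tested 26.1% rose and 23.9% fell by the same rule. A rise of at least 2-fold was found for 10 of the 32, against 7.32% of all genes, and a fall of at least 2-fold for 2, Eno3 and Pfkfb1, against 6.72%. The 4 knockouts did not overlap the 4 controls for 26 of the 32 genes, against 45.4% of all genes. The median log2 fold change was 0.43 for the 32 genes and -0.01 for all genes. With library totals as the scale 28 of the genes rose and 2 fell. Of the 8 lower genes 5 (Slc2a4, Hk2, Pgam2, Ldhb and Pdk2) were then called higher, Pfkm no longer passed (0.22, edgeR adjusted p = 0.135), and Eno3 and Pfkfb1 stayed lower. Without knockout replicate 1, 19 rose and 8 fell.

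Split by role in the step, the counts were as follows. For each step with isozymes 1 gene was taken as its muscle or heart form, with Pdk4 and Slc16a1 among them. Ldha and Pfkfb1, which are also named for muscle below, therefore count among the other isozymes. The counts depend on that choice. Of the 10 genes that are the muscle or heart form of a step with isozymes, 6 fell (Slc2a4, Hk2, Pfkm, Pgam2, Eno3 and Ldhb, of which Eno3 alone stayed lower with library totals), 2 rose (Aldoa and Pdk4) and 2 did not pass. Of the 17 other isozymes of those steps 9 rose, 2 fell, 5 did not pass and 1 was not tested. All 6 genes without such a partner in the list rose, namely Gpi1, Tpi1, Gapdh, Pgk1, Pkm and Tigar. On average the knockouts gave 0.987% ± 0.0254 of nuclear counts to the 33 genes, against 0.783% ± 0.00470 in controls (SD, n = 4 each). This sum leans on abundant genes. Aldoa had the largest change in CPM of the 33, from 504 ± 11.9 in controls to 947 ± 105 in knockouts.

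**Figure D1:**
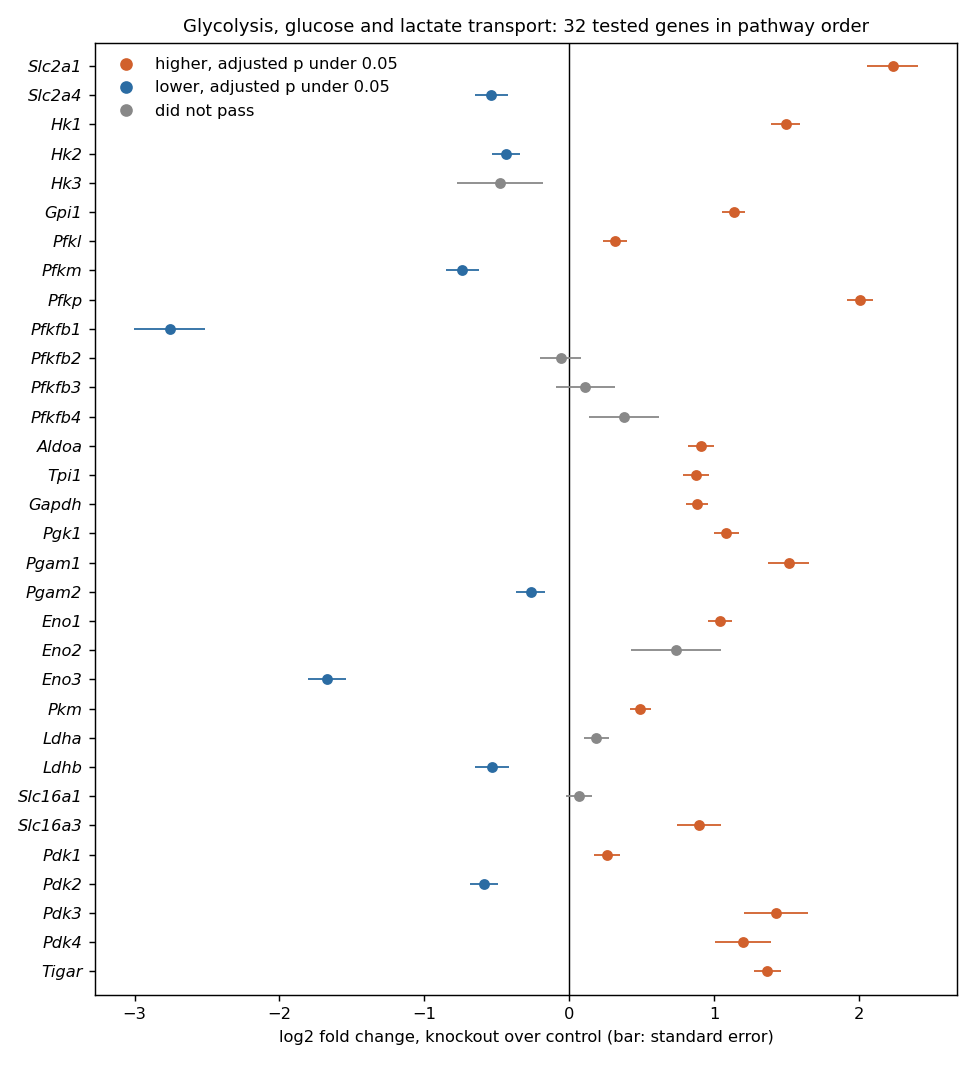
Log2 fold changes of the 32 tested genes, knockout over control, in pathway order from glucose uptake at the top; points are edgeR estimates on the TMM scale, bars are standard errors, and colours give the call. Slc2a1 at 2.23 and Pfkp at 2.01 lie farthest to the right and Pfkfb1 at -2.76 and Eno3 at -1.67 farthest to the left; with library totals as the scale 5 of the 8 lower genes are called higher and 1, Pfkm, does not pass.

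At glucose uptake the minor transporter gene rose and the major one fell. Slc2a1 (chromosome 4, 119108711 to 119137983 in GRCm38, plus strand) encodes GLUT1, the insulin-independent carrier of fetal heart and most cells. It had 5.64, 5.14, 4.92 and 5.18 CPM in controls and 16.4, 33.3, 24.5 and 23.9 in knockouts. The lowest knockout, replicate 1, lay well above the highest control, and replicate 2 was the highest. Slc2a1 rose 4.70-fold (log2 2.23, SE 0.18, edgeR adjusted p = 2.06e-07). Slc2a4 encodes GLUT4, which insulin brings to the surface of muscle and fat cells. Its levels were 169.7, 174, 168 and 162 CPM in controls and 117, 86.5, 133 and 127 in knockouts, where replicate 2 was lowest and no library reached the controls. Slc2a4 fell by 0.54 on the log2 scale (SE 0.11, edgeR adjusted p = 0.00118), a direction that turned with library totals (0.46). Per kilobase of exon Slc2a4 stayed the more abundant of the pair, at 33.4 ± 5.98 against 6.99 ± 1.97 CPM per kb in knockouts (SD, n = 4). The share of Slc2a1 in the per-length sum of both genes went from 2.99% ± 0.176 in controls to 17.7% ± 6.77 in knockouts.

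Hexokinase, which traps glucose as glucose-6-phosphate, also had 1 main isozyme that rose and 1 that fell. Hk1 (chromosome 10, 62268855 to 62379908 in GRCm38, minus strand), the form of brain and fetal heart, had 44.7, 46.6, 43.4 and 42.0 CPM in controls and 148, 128, 118 and 105 in knockouts. Every knockout was more than 2 times above every control. The rise was 2.82-fold (log2 1.50, SE 0.10, edgeR adjusted p = 3.12e-08). Hk2, the insulin-responsive muscle form, had 184, 164, 179 and 169 CPM in controls and 106, 134, 126 and 147 in knockouts. Replicate 1 was the lowest knockout for Hk2 and the highest for Hk1, and neither gene overlapped between groups. Hk2 fell by 0.44 on the log2 scale (SE 0.09, edgeR adjusted p = 0.00151) and was higher by 0.58 with library totals. Hk3, found mainly in white blood cells, stayed under 1 CPM in all libraries and did not pass (-0.48, SE 0.30, edgeR adjusted p = 0.203). The per-length sum of the 3 genes was 34.5 ± 1.50 CPM per kb in controls and 36.2 ± 1.25 in knockouts, and the share of Hk1 in it went from 15.0% ± 0.988 to 40.4% ± 6.61 (SD, n = 4).

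Phosphofructokinase commits sugar to glycolysis as a tetramer of M, L and P subunits, and the P subunit gene had the smallest p of the 33 genes. Pfkp (chromosome 13, 6579768 to 6648777 in GRCm38, minus strand) had 20.2, 16.1, 20.7 and 20.5 CPM in controls and 72.1, 81.1, 76.8 and 81.8 in knockouts. The knockouts, replicate 1 included, lay close together and far above the controls. Pfkp rose 4.02-fold (log2 2.01, SE 0.09, edgeR adjusted p = 7.72e-10). Pfkm (chromosome 15, 98092589 to 98132451, plus strand), the muscle subunit, had 175, 171, 176 and 175 CPM in controls and 135, 85.9, 99.9 and 97.9 in knockouts. Replicate 1 was the knockout nearest the controls, and the groups did not overlap. Pfkm fell by 0.74 on the log2 scale (SE 0.11, edgeR adjusted p = 9.56e-05), by 0.89 without knockout replicate 1, and did not pass with library totals, where it was 0.22 with the opposite sign. Pfkl, the liver subunit, had 22.2 to 26.2 CPM in controls and 27.2 to 33.1 in knockouts (log2 0.32, SE 0.08, edgeR adjusted p = 0.00525). Per kilobase Pfkm was still 74.9% ± 4.02 of the 3 subunit genes in knockouts, against 91.2% ± 0.502 in controls, while Pfkp went from 2.53% ± 0.252 to 14.3% ± 2.55 (SD, n = 4). Of the exon bases of Pfkp 5.58% also belong to Pitrm1 on the opposite strand, and without a stated strand setting reads there cannot be told apart. The promoters of this pair are shown because their genes went apart most clearly. Each is the 250 bases before the most upstream start in RefSeq's annotation of GRCm38.p6, read 5′ to 3′ on the gene's strand, and capitals mark the letters GCGTG or CACGTG on either strand.
Pfkp chr13:6648772-6649021 (minus strand): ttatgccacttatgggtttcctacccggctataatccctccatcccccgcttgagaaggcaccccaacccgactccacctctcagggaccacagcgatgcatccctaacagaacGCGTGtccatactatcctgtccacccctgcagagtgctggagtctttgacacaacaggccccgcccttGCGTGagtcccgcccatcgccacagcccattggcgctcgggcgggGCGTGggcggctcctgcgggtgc
Pfkm chr15:98092339-98092588 (plus strand): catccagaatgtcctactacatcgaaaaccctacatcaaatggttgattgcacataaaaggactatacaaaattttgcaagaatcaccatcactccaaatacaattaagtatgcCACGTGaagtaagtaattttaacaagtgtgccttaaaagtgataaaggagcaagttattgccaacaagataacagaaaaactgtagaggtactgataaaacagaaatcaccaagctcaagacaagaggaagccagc
The Pfkp window holds GCGTG 3 times and has 62.8% G and C, and the Pfkm window, the first of 4 annotated starts, holds CACGTG once and has 36.4% G and C. The windows of the other Pfkm starts have 51.2%, 60.4% and 52.8% G and C. Of these, the overlapping windows that begin at 98108221 and 98108306 hold GCGTG once each.

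Among the enzymes that make or remove fructose-2,6-bisphosphate, the main activator of phosphofructokinase, 1 fell strongly, 1 rose and 3 did not pass. Pfkfb1, the bifunctional enzyme of liver and skeletal muscle (chromosome X, 150588229 to 150643878 in GRCm38, plus strand), had 5.22, 7.28, 3.49 and 4.24 CPM in controls. In knockouts it had 0.994, 0.666, 0.721 and 0.630 CPM, which rests on 20 to 26 counts per library. The groups lay far apart, and the controls themselves spread about 2 times between lowest and highest. Pfkfb1 fell by 2.76 on the log2 scale (SE 0.24, edgeR adjusted p = 6.05e-07) and stayed lower with library totals. Tigar, which removes fructose-2,6-bisphosphate and so slows glycolysis, had 29.5 to 37.2 CPM in controls and 74.2 to 93.8 in knockouts. It rose 2.58-fold (log2 1.37, SE 0.10, edgeR adjusted p = 5.64e-08). The heart form Pfkfb2 was level (-0.06, 95% interval -0.36 to 0.25), as was Pfkfb3 (0.11, -0.33 to 0.55), and the groups overlapped for both. Pfkfb4 gave 0.38 (SE 0.24, edgeR adjusted p = 0.216) with replicate 1, at 1.91 CPM, below the other knockouts at 3.89 to 4.72. Without that library it was 0.57 (edgeR adjusted p = 0.0077). Of the exon bases of Pfkfb2 19.5% are shared with other annotated genes, as are 15.3% of those of Pkm and 11.5% of those of Gpi1.

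The steps from glucose-6-phosphate to 3-phosphoglycerate that rest on 1 main gene all rose. Gpi1, which turns glucose-6-phosphate into fructose-6-phosphate, had 67.0 to 75.1 CPM in controls and 145 to 178 in knockouts (log2 1.135, SE 0.08). Aldoa, the muscle aldolase that splits the 6-carbon sugar, was the most abundant of the 33 genes per kilobase in knockouts and had 493, 517, 495 and 512 CPM in controls and 1105, 891, 892 and 901 in knockouts. Replicate 1 was the highest knockout for Aldoa, Gpi1 and Tpi1, and no knockout reached down to a control for any of them. Aldoa rose 1.88-fold (log2 0.91, SE 0.09, edgeR adjusted p = 2.03e-06). Tpi1, which interconverts the triose phosphates, rose from 138 to 149 CPM to 234 to 309 (log2 0.87, SE 0.09). Gapdh, the oxidising step and a common reference gene, had 18.5, 22.2, 20.8 and 19.4 CPM in controls and 36.9, 34.9, 38.6 and 38.6 in knockouts. The groups lay well apart, and Gapdh rose 1.84-fold (log2 0.88, SE 0.08, edgeR adjusted p = 4.83e-07). Pgk1, the first ATP-forming step, rose from 10.4 to 13.2 CPM to 22.9 to 26.4 (log2 1.08, SE 0.09). Aldoc, the brain aldolase, had 8 counts in all controls and 37 in all knockouts, too few for the test.

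Phosphoglycerate mutase has a brain form, Pgam1, and a muscle form, Pgam2. Pgam1 had 3.27, 3.41, 3.49 and 4.09 CPM in controls and 8.60, 12.9, 9.58 and 9.58 in knockouts. All knockouts were more than 2 times above the highest control, with replicate 2 the highest. Pgam1 rose 2.86-fold (log2 1.51, SE 0.14, edgeR adjusted p = 1.02e-06). Pgam2, the most abundant of the 33 genes per kilobase in controls (186 ± 8.02 CPM per kb), had 158, 150.2, 165 and 152 CPM in controls and 144, 101, 136 and 139 in knockouts. The groups did not overlap, but the gap was small and replicate 2 lay below the other knockouts. Its fall of 0.27 on the log2 scale (SE 0.10, edgeR adjusted p = 0.0406) was lost with DESeq2 (adjusted p = 0.0631), with no filter, and without any 1 of the controls or without knockout replicate 2 or 3 (-0.16 without replicate 2), and it turned with library totals (0.72). Pgam1 made up 0.958% ± 0.118 of the per-length sum in controls and 3.33% ± 1.21 in knockouts (SD, n = 4).

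Enolase, which makes phosphoenolpyruvate, had the largest loss of any step's summed level. Eno3 (chromosome 11, 70657202 to 70662513 in GRCm38, plus strand), the muscle form, had 242, 219, 232 and 251 CPM in controls and 94.8, 55.1, 79.4 and 67.7 in knockouts. The highest knockout, replicate 1, was under 0.5 times the lowest control. Eno3 fell by 1.67 on the log2 scale (SE 0.13, edgeR adjusted p = 2.05e-07). Eno1 (chromosome 4, 150236721 to 150248879, plus strand), the widely expressed form, had 10.6, 11.7, 11.2 and 10.8 CPM in controls and 22.8, 23.6, 20.4 and 24.2 in knockouts, with little spread in either group. It rose 2.06-fold (log2 1.04, SE 0.08, edgeR adjusted p = 1.65e-07). Eno2, the neuronal form, stayed under 1 CPM and did not pass with all libraries (0.74, SE 0.31, edgeR adjusted p = 0.0646), though it did without knockout replicate 1 (0.82, adjusted p = 0.0489). The rise of Eno1 did not make up for Eno3 in RNA: the per-length sum of the 3 genes was 138 ± 7.74 CPM per kb in controls and 47.1 ± 9.56 in knockouts (SD, n = 4), 0.341 times as much. Eno3 was still 90.4% ± 2.42 of that sum. Sum and share depend on the merged exons, 1739 bases for Eno3 and 5379 for Eno1. Without length the knockout means were 74.3 ± 16.9 CPM for Eno3 and 22.8 ± 1.68 for Eno1 (SD, n = 4). The promoters of this pair are shown by the same rules, with capitals for GCGTG or its reverse complement CACGC.
Eno1 chr4:150236458-150236707 (plus strand): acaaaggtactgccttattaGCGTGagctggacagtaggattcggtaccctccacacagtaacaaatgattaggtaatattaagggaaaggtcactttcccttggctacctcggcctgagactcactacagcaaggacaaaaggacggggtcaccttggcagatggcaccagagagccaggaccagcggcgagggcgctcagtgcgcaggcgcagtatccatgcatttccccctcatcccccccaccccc
Eno3 chr11:70656926-70657175 (plus strand): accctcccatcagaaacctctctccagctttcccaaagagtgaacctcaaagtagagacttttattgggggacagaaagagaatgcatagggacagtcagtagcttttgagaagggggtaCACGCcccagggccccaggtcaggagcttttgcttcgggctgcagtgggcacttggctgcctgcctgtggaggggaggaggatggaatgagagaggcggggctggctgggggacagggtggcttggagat
Both windows hold these letters once, and the window of Eno1 is the first of 3 annotated starts. The overlapping windows of the other Eno1 starts, which begin at 150236947 and 150236974, hold the letters 2 times each. Eno3 has 1 annotated start.

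Pyruvate kinase and the lactate steps moved less. Pkm, which forms pyruvate and ATP and whose M1 and M2 products these gene counts do not separate, had 281, 269.6, 291 and 291 CPM in controls and 396, 395, 398 and 402 in knockouts. The knockouts were tightly grouped, replicate 1 among them, and Pkm rose 1.41-fold (log2 0.49, SE 0.07, edgeR adjusted p = 5.99e-05). Ldhb, the heart subunit of lactate dehydrogenase, had 192, 182, 191 and 175 CPM in controls and 154, 95.8, 121 and 141 in knockouts. Replicate 1 was nearest the controls and replicate 2 the lowest. Ldhb fell by 0.53 on the log2 scale (SE 0.12, edgeR adjusted p = 0.00195) and was higher by 0.44 with library totals. Ldha, the muscle subunit, had 120.2, 106, 125 and 121 CPM in controls and 155, 126, 129 and 127 in knockouts. Its knockouts lay just above the controls apart from replicate 1, and the difference of 0.19 (SE 0.09) did not pass in edgeR (adjusted p = 0.0879). It was 0.10 without knockout replicate 1 and passed with no filter on low counts (0.23, adjusted p = 0.0385). Per kilobase Ldha went from 23.3% ± 1.22 to 33.6% ± 3.55 of both subunit genes (SD, n = 4).

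The main lactate carrier was level and the minor one rose. Slc16a1, which encodes MCT1 and takes up lactate in heart, had 156 to 197 CPM in controls and 170.3 to 199 in knockouts, with overlap (0.07, 95% interval -0.12 to 0.26). Slc16a3, which encodes MCT4, the lactate exporter of glycolytic cells, had 2.11, 2.15, 2.21 and 1.74 CPM in controls and 3.67, 4.34, 3.23 and 4.03 in knockouts. All knockouts were above all controls. Slc16a3 rose 1.86-fold (log2 0.90, SE 0.15, edgeR adjusted p = 0.000243) and remained a small part of the pair, at 1.71% ± 0.286 of its per-length sum in knockouts against 0.979% ± 0.172 in controls (SD, n = 4).

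The 4 pyruvate dehydrogenase kinase genes, which encode the off switch of pyruvate oxidation, split into 3 that rose and 1 that fell. Pdk4, the kinase of fasting and fat use, had 163, 143, 106 and 136 CPM in controls and 198, 278.8, 430.3 and 356 in knockouts. It varied more than most of the genes in both groups, with knockout replicate 1 closest to the controls. Pdk4 rose 2.30-fold (log2 1.20, SE 0.19, edgeR adjusted p = 0.000146). Pdk2, the kinase found in most tissues, had 88.6, 89.3, 85.8 and 81.4 CPM in controls and 68.4, 49.95, 60.1 and 51.2 in knockouts. Here too replicate 1 was nearest the controls, without overlap. Pdk2 fell by 0.59 on the log2 scale (SE 0.10, edgeR adjusted p = 0.000166) and turned with library totals (0.38). Pdk3 rose at a low level from 0.498 to 0.786 CPM to 1.50 to 2.06 (log2 1.43, SE 0.22, edgeR adjusted p = 0.000102). Pdk1, known as a hypoxia target, gave 0.26 (SE 0.09, edgeR adjusted p = 0.0222), with knockout replicate 2 at 93.7 CPM below control 2 at 94.9. That call was lost without control 1, 3 or 4 (adjusted p 0.0511 to 0.0708). The per-length sum of the 4 genes was 78.1 ± 7.26 CPM per kb in controls and 123 ± 26.8 in knockouts, and Pdk4 went from 49.8% ± 4.47 to 72.2% ± 8.70 of it (SD, n = 4).

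**Figure D2:**
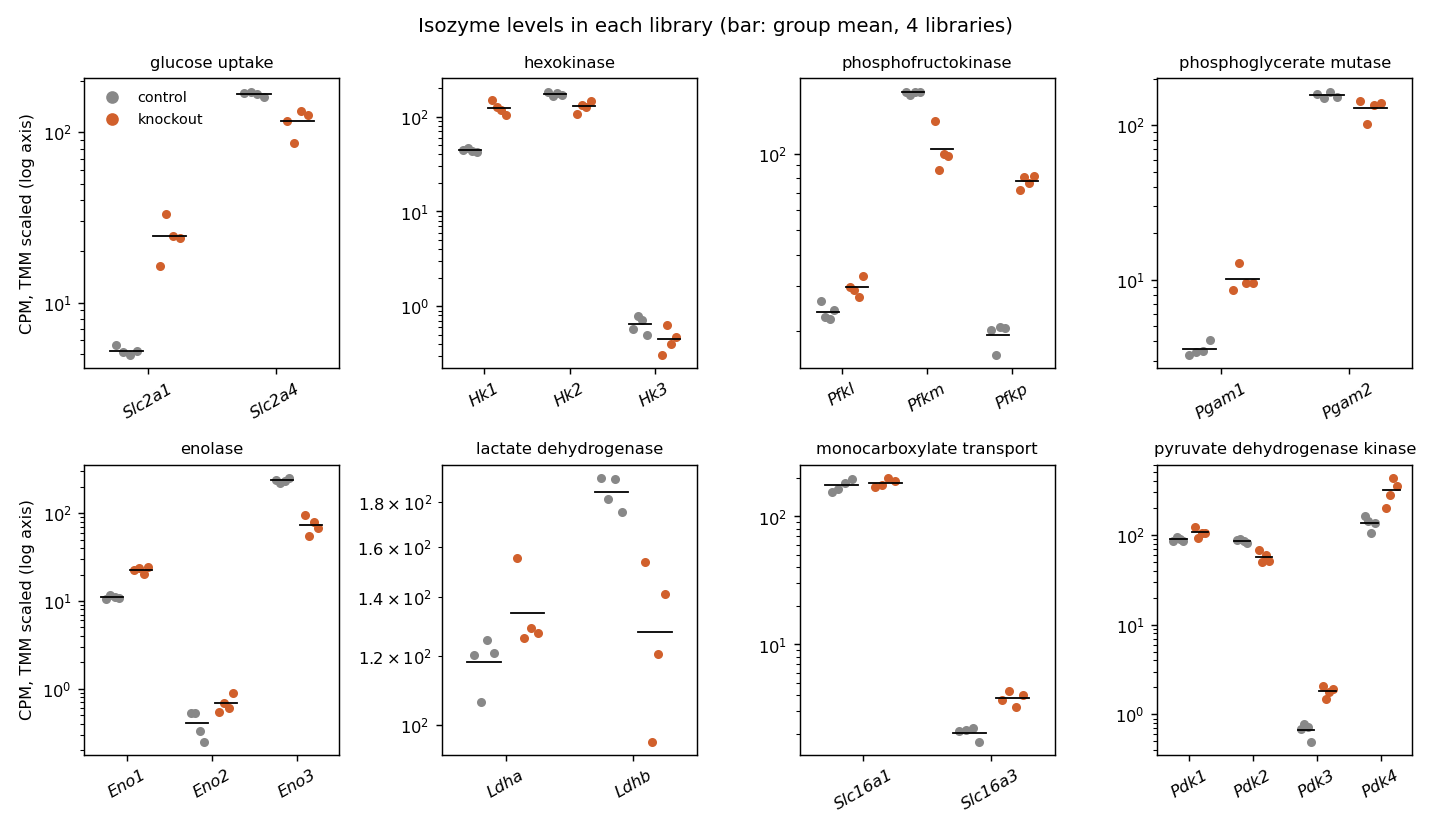
CPM of the isozymes of 8 steps in each library on a log axis; grey points are the 4 controls, orange points the 4 knockouts, and the bar is the group mean. Slc2a1, Hk1, Pfkp, Pgam1 and Eno1 are higher in every knockout than in any control, and Slc2a4, Hk2, Pfkm and Eno3 are lower, of which Eno3 alone stays lower with library totals as the scale.

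A ratio of 2 isozymes within a library does not depend on how libraries are scaled. The log2 ratio of counts, with 0.5 added to each, was taken for 16 pairs, each of an isozyme against the muscle or heart form of its step. In 11 of the 16 the knockouts did not overlap the controls, 9 with a higher and 2 with a lower ratio. For single genes the share without overlap was 45.4%, and no such share was computed for ratios. Each of the 11 had an exact permutation p of 0.0286 (two-sided, 70 relabelings), the smallest that 4 against 4 libraries allow. The adjusted p of that test over the 16 ratios was 0.0416 for each. The pairs were chosen with earlier results of these data known, which these p-values do not take into account.

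Pfkp against Pfkm had the largest rise of a ratio. Its log2 ratio was -3.11, -3.41, -3.08 and -3.09 in controls and -0.90, -0.08, -0.38 and -0.26 in knockouts, a difference of 2.77 (SE 0.19). All knockouts lay more than 2 units above all controls, with replicate 1 the lowest of them. The other rises were 2.74 (SE 0.31) for Slc2a1 against Slc2a4, 2.73 (SE 0.21) for Eno1 against Eno3, 2.41 (SE 0.40) for Eno2 against Eno3, 1.93 (SE 0.21) for Hk1 against Hk2 and 1.77 (SE 0.26) for Pgam1 against Pgam2. Smaller ones were 1.07 (SE 0.15) for Pfkl against Pfkm, 0.81 (SE 0.19) for Slc16a3 against Slc16a1 and 0.74 (SE 0.12) for Ldha against Ldhb. In the opposite direction Pfkfb1 against Pfkfb2 changed by -2.61 (SE 0.39) and Pdk2 against Pdk4 by -1.76 (SE 0.33). Ratios that overlapped were those of Hk3, Pfkfb3, Pfkfb4, Pdk1 and Pdk3. Of these Pdk1 against Pdk4 differed by -0.91 (exact permutation p = 0.0857), with knockout replicate 1 alone among the controls, and without it 12 of the 16 ratios did not overlap.

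**Figure D3:**
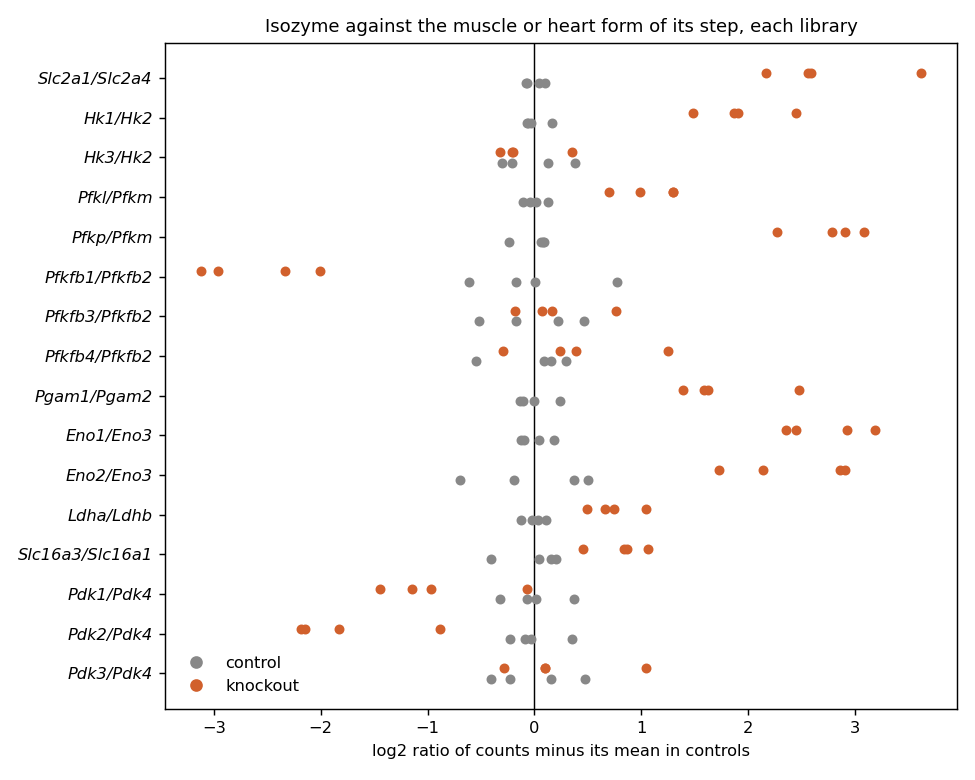
Log2 ratio of the counts of 2 isozymes in each library, minus the mean of the 4 controls, for 16 pairs; grey points are controls and orange points knockouts. Orange points lie wholly to the right for 9 pairs, up to a mean of 2.77 for Pfkp/Pfkm, wholly to the left for Pfkfb1/Pfkfb2 and Pdk2/Pdk4, and among the grey ones for 5.

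**Figure D4:**
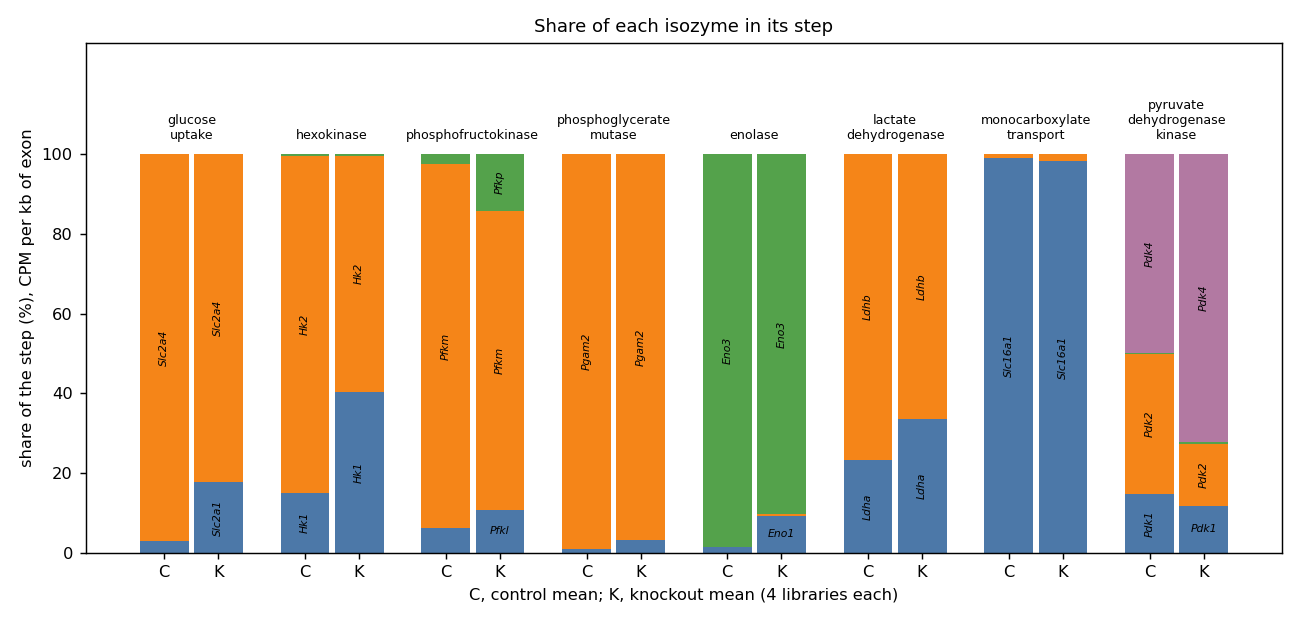
Share of each isozyme in the summed level of its step, as stacked bars for controls (C) and knockouts (K), 4 libraries each. Shares are from mean CPM per kilobase of merged exons and depend on that length. Segments run upward in gene order (Hk1 below Hk2 below Hk3), and thin ones carry no name; Slc2a4, Hk2, Pfkm, Pgam2, Eno3, Ldhb and Slc16a1 keep the largest share in both groups, while the share of Hk1 goes from 15.0% to 40.4% and that of Pdk4 from 49.8% to 72.2%.

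Per kilobase of exon the order of the 33 genes changed at the top. The order within a group depends on the merged exon lengths. In controls it ran from Pgam2 (186 ± 8.02 CPM per kb) through Aldoa (173 ± 4.10), Eno3 (136 ± 7.84) and Ldhb (118 ± 4.99) to Pkm (56.6 ± 2.02), Tpi1 (52.4 ± 1.77) and Pfkm (52.1 ± 0.661), of which the last pair did not differ beyond their spread. In knockouts it ran from Aldoa (325 ± 36.1) through Pgam2 (155 ± 23.1), Tpi1 (96.0 ± 11.6), Pdk4 (89.96 ± 28.4), Ldhb (81.4 ± 16.1) and Pkm (79.6 ± 0.628) to Eno3 (42.7 ± 9.71) (SD, n = 4), and Tpi1, Pdk4, Ldhb and Pkm lay within their spread of each other. Aldoc, Eno2, Hk3 and Pdk3 were lowest in controls, at 0.0320, 0.0867, 0.175 and 0.262 CPM per kb.

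Many glycolysis genes have processed copies in the genome, to which reads can be assigned in their place. Features sharing at least 20% of their 50-base windows with a member's transcripts were found for 8 of the 33 genes, 67 features in all, 57 of them for Gapdh. The copies held as many counts as the gene or more for some of them. Gm1840, the copy of Gpi1, had 2.14 ± 0.139 counts per count of Gpi1 in controls and 2.18 ± 0.0368 in knockouts, and Gm6560, the copy of Pkm, 0.970 ± 0.00492 and 0.999 ± 0.0167 (SD, n = 4). The copies of Pgam1 (2.06 and 2.23) and of Eno1 (1.10 and 1.28) also held more than the gene. Those of Ldhb (0.591 and 0.659), Gapdh (0.426 and 0.504), Pgk1 (0.399 and 0.387) and Tpi1 (0.252 and 0.246) held less, and this ratio separated the groups for Gapdh alone. The sources used here do not say how reads that match both were assigned, so the levels of these 8 genes are uncertain. The same holds for the sums and shares of phosphoglycerate mutase, enolase and lactate dehydrogenase above. Adding all copies left the direction and the call of each of the 8 as they were. The log2 fold changes were then 1.16 for Gpi1, 0.96 for Gapdh, 1.07 for Pgk1, 1.58 for Pgam1, 1.16 for Eno1, 0.51 for Pkm, 0.87 for Tpi1 and -0.47 for Ldhb. The ratios with copies added were 1.86 for Pgam1 against Pgam2, 2.86 for Eno1 against Eno3 and 0.68 for Ldha against Ldhb, all without overlap.

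**Figure D5:**
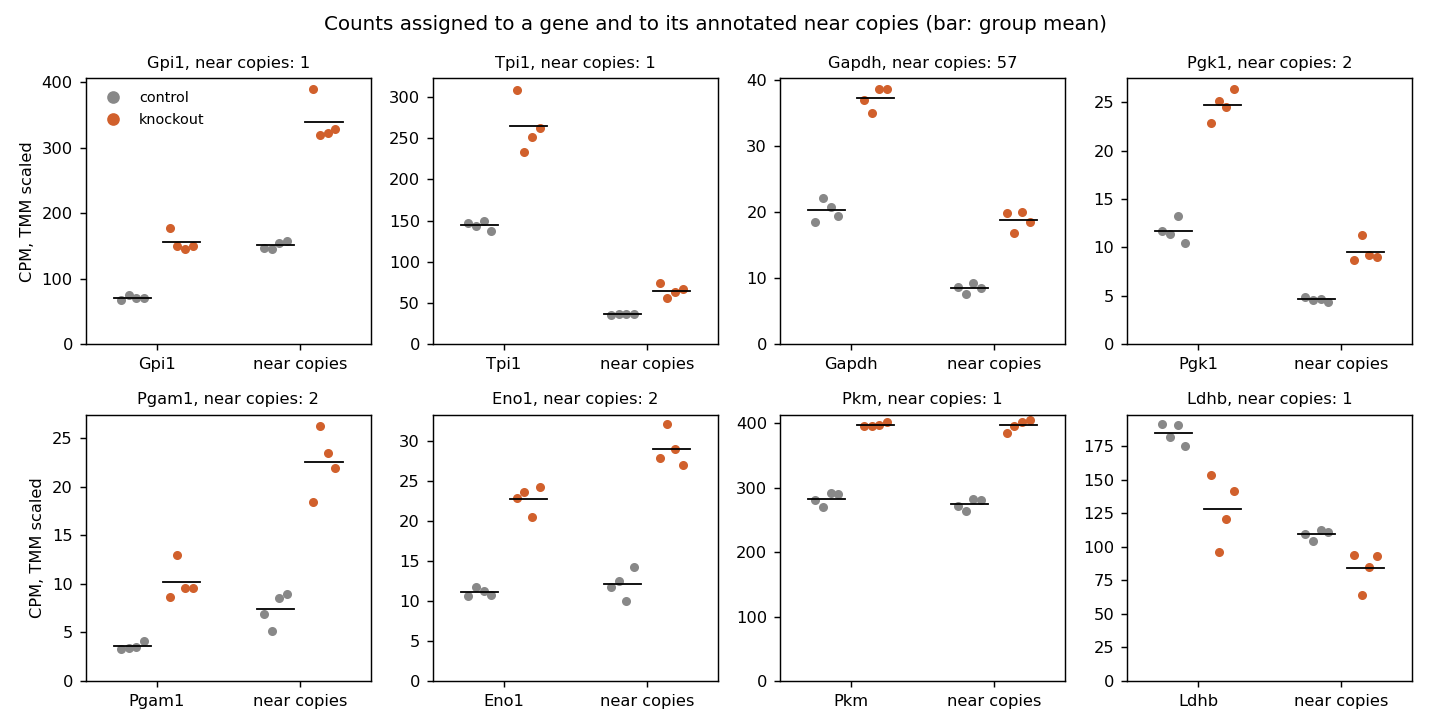
CPM assigned to 8 genes and, summed, to their near copies in each library; grey points are controls, orange points knockouts, and bars are group means, with axes from 0. Copies and gene move the same way in all 8 panels, upward for 7 and downward for Ldhb on the TMM scale (Ldhb turns upward with library totals), and the copies of Gpi1 stand above Gpi1 itself in both groups.

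The promoters of the genes were searched for short letters that regulators of glycolysis are known to read. These were ACGTG and GCGTG (the core of the hypoxia response element), CACGTG (the E-box read by MYC and by carbohydrate-response factors, which contains ACGTG) and TGATGNAA (the composite site of ATF4), on both strands in the 250 bases before any RefSeq start in GRCm38.p6. A promoter was found for 32 of the 33 genes. ACGTG was in 15 of them (46.9%, against 18.5% of 27025 genes), GCGTG in 20 (62.5% against 30.9%), CACGTG in 6 (18.8% against 6.86%) and TGATGNAA in 0 (against 3.91%). Genes with several starts have more windows in these counts. With the most upstream start alone, ACGTG was in 37.5% of the 32 genes against 16.5% of all. GCGTG was then in 46.9% against 28.3%, and CACGTG in 12.5% against 6.04%. Median G and C was 58.6% in these promoters and 52% in all, and its part in the difference was not tested. By direction of the gene, ACGTG was in 7 of the 17 that rose and 3 of the 7 that fell, GCGTG in 10 and 4, and CACGTG in 0 and 2 (Pfkm and Pdk2). Such matches describe the letters of these windows alone.

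The libraries did not move as 1 block. The median coefficient of variation of the 32 tested genes was 7.17% in controls and 13.9% in knockouts. Knockout replicate 1 was the knockout nearest the controls for 11 of the 25 genes that rose or fell, 6 of the 8 that fell and 5 of the 17 that rose. It was also the highest knockout for 6 of the 17. Replicate 2 was the lowest knockout for 6 of the 8 that fell. The authors' deposited table gives 17 of the 33 genes an adjusted p under 0.05 with a positive and 7 with a negative log2 fold change, and Pgam2 is the gene by which the falls differ from those above.

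Genes around the pathway did not share 1 direction. Of 75 genes in 7 further lists 67 were tested, and 21 rose, 21 fell and 25 did not pass. In transport 2 rose and 2 fell of 7. Slc2a12, an insulin-sensitive glucose carrier, fell by 1.28 on the log2 scale (SE 0.20), a call lost with library totals (-0.27, edgeR adjusted p = 0.304). Slc16a7, which encodes the pyruvate carrier MCT2, fell by 0.54 (SE 0.15), but with library totals it was higher by 0.47 and did not pass (edgeR adjusted p = 0.0618). Bsg, the chaperone of MCT1 and MCT4, rose by 0.40 (SE 0.09). Among further sugar enzymes 2 rose and 2 fell of 9, with Pgm2, a phosphoglucomutase, at 1.57 (SE 0.07), Ldhd, a dehydrogenase of D-lactate, at -1.48 (SE 0.09), and Fbp2, the muscle fructose bisphosphatase, at -2.48 (SE 0.28).

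Of 10 genes of pyruvate entry into mitochondria 2 rose and 5 fell. Pdp2, a phosphatase that switches pyruvate dehydrogenase back on, fell from 32.7 ± 4.48 to 6.17 ± 0.787 CPM (log2 -2.41, SE 0.12, edgeR adjusted p = 1.76e-09). Parts of the complex itself went different ways. Pdhb (0.83, SE 0.10) and Pdhx (0.43, SE 0.08) rose and Dlat fell (-0.33, SE 0.07). Pdha1 (0.09, SE 0.09) and Dld (0.10, SE 0.06) did not pass. In the pentose phosphate and polyol list 5 rose and 2 fell of 10. G6pdx (1.32, SE 0.12) and Pgd (1.03, SE 0.11), the NADPH-forming steps, rose, and the polyol genes Akr1b3 (-1.12, SE 0.12) and Sord (-0.70, SE 0.12) fell. Neither passed with library totals (-0.12 for Akr1b3 and 0.25 for Sord). Of 7 genes of the glycerol and NADH shuttles Gpd1 rose from 30.4 ± 0.565 to 139.8 ± 22.3 CPM (log2 2.20, SE 0.11, edgeR adjusted p = 1.66e-09) and Got1 by 1.06 (SE 0.08), and Mdh1 fell by 0.35 (SE 0.11) but was higher by 0.61 with library totals.

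Among 15 regulators 5 rose and 7 fell. Hif1a, the oxygen-regulated activator of glycolysis genes, rose from 45.3 ± 1.71 to 177 ± 19.0 CPM (log2 1.97, SE 0.09, edgeR adjusted p = 7.72e-10). Myc, another activator, rose from 0.569 ± 0.326 to 10.3 ± 3.18 CPM (log2 4.16, SE 0.33, edgeR adjusted p = 1.79e-07), and Txnip, which lowers glucose uptake, by 1.07 (SE 0.22). Mlxipl, the carbohydrate-response factor ChREBP, fell from 10.8 ± 2.07 to 1.77 ± 0.391 CPM (log2 -2.61, SE 0.17, edgeR adjusted p = 3.57e-08). Insr, the insulin receptor (0.32, SE 0.11, with overlap between the groups), and Prkaa2, a catalytic subunit of AMP-activated kinase (0.18, SE 0.07), were the other rises. The call of Insr was lost without control replicate 2, 3 or 4 or knockout replicate 3 (edgeR adjusted p 0.0567 to 0.0815), and that of Prkaa2 without any 1 of the controls or without knockout replicate 2 or 3 (0.0513 to 0.0903). The other 6 falls, named after their values were seen, included 3 genes of insulin signalling, Tbc1d4 (-1.23, SE 0.11) and Irs1 (-1.19, SE 0.11), which did not pass with library totals (-0.27 and -0.21), and Akt2 (-0.33, SE 0.07), which was then higher by 0.66. The rest were Ppara (-0.91, SE 0.16), a regulator of fatty acid use, Mlxip (-0.49, SE 0.10), the relative of ChREBP, and Epas1 (-0.47, SE 0.08), the HIF subunit related to Hif1a. With library totals Ppara did not pass (0.052), and Mlxip (0.51) and Epas1 (0.53) were higher. Of 9 tested HIF targets outside glycolysis 3 rose and 2 fell. The rises were Ndrg1 at 0.82 (SE 0.11), Bnip3 at 0.56 (SE 0.12) and Kdm3a at 0.22 (SE 0.08, with overlap between the groups). The falls were Egln1 at -0.95 (SE 0.10, and 0.017 with library totals) and P4ha1 at -0.59 (SE 0.13, and 0.41 with library totals). Over all genes tested 26.1% rose and 23.9% fell.

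Some markers of most cell types were called, where over all genes tested 26.1% rose and 23.9% fell. None of the counts below was tested against those shares. Of 7 cardiomyocyte markers 6 fell and 0 rose, and their summed level was 17343 to 18435 CPM in controls and 7543 to 11942 in knockouts. Ryr2 fell by 1.76 (SE 0.14) and Tnni3 by 1.001 (SE 0.11) on the log2 scale. Fibroblast genes gave 2 rises of 6, Col1a2 (1.16, SE 0.23) and Col1a1 (1.17, SE 0.28), both with overlap between the groups. Their list summed to 240.0 to 253 CPM in controls and 221 to 405 in knockouts. Endothelial markers gave 3 falls of 5 (340.1 to 358 and 287 to 322 CPM; Kdr -0.41, Tie1 -0.35) and macrophage and leukocyte markers 3 of 7 (65.0 to 92.7 and 46.1 to 72.0 CPM; Ptprc -0.58, C1qb -0.56). Smooth muscle and pericyte markers gave 1 fall of 5 (492 to 521 and 432 to 483 CPM; Acta2 -1.07), nerve and Schwann cell markers 1 rise and 1 fall of 4 tested (3.25 to 4.64 and 4.65 to 7.69 CPM; Tubb3 3.36, Sox10 -0.91), and erythroid markers 0 of 6 (182 to 458 and 172 to 907 CPM). With library totals Kdr, Tie1 and C1qb were called higher, and Ptprc (0.44), Sox10 (0.051), Tnni3 (-0.046) and Acta2 (-0.11) did not pass. Of the skeletal muscle markers Myh4 had 0 counts in all libraries and Mybpc2 alone was tested (-2.62, SE 0.25), with 3.21 to 3.93 CPM in all in controls and 0.579 to 0.945 in knockouts. Atrial markers summed to under 1 CPM, and adipocyte markers to 0.0524 to 0.369 CPM in controls and 0.0579 to 0.202 in knockouts. The part of these shifts in the levels of the glycolysis genes was not tested.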

How the data were processed

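TruSeq libraries of total RNA from crude heart mitochondria of 8 mice, 4 per genotype, were read as paired ends on a MiSeq, per the labels' protocols. The series text describes separate mice. Counts per gene were deposited as whole numbers. The tools named in the submitters' processing notes, in no order and with no role, are featureCounts, Bowtie2, bedtools, SAMtools 1.3.1, DESeq2 1.14.1 and R 3.3.2, with the build mm10. The sources used here do not say whether strand was kept, rRNA removed or reads with several matches counted. The normalized signal that the authors deposited is proportional to the counts within each library (relative deviation up to 4.75e-11) and served as a check. From the authors' deposited table of log2 fold changes, a statistic (score) per gene and p-values, calls are quoted once.

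Counts were tested with edgeR 4.0.16 in R 4.3.3 by the two-sided quasi-likelihood F test with genotype as the only term. TMM factors, filterByExpr (minimum count 10) and Benjamini-Hochberg adjustment at 0.05 over 17891 genes were used, and the biological coefficient of variation was 11.3%. For isozyme ratios, an exact permutation test (two-sided, 70 relabelings) was run per ratio. Levels per kilobase use merged exons of the GENCODE annotation of GRCm38, matched by gene ID. Merged exons join those of all annotated transcripts of a gene, and which transcripts the reads came from was not tested. Near copies were features with at least 20% of their 50-base windows in a member's transcripts. The members, the lists, the pairs of isozymes and the tests were chosen with earlier results of these data known. All 33 members are named. From each further list up to 3 called genes by smallest p, and genes called against most of their list, were named by rule. From each marker list up to 2 were. Dlat, Pdha1, Dld, Bnip3 and Kdm3a were named beyond the rule, and their values under the alternatives are not given.

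Simulated counts with known changes among 17594 tested genes gave a recovery by edgeR of 68.8% at 1.5-fold, 88% at 2-fold, 98.0% at 4-fold and 100% at 8-fold, with 4 false calls of 178. In the simulation few genes changed, and every gene had the same biological coefficient of variation of 11.3% in both groups. In the data knockouts varied more than controls (median 13.9% against 7.17% for the tested members). The recovery and false calls therefore describe the simulated setting alone. Alternatives were DESeq2 1.42.0, other scalings and filters, a replicate block, each library left out, and copies added to their gene. No library was counted as a duplicate, since replicates differed beyond counting noise (chi-square over degrees of freedom 2.57 to 144). Precision is limited by 4 libraries per group and, for low genes, by counts. Figures were drawn with matplotlib 3.10.9.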

Additional observations from a re-analysis of the deposited data

Results flagged for a closer look

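Within groups of 4 libraries, 7 values of 98 groups examined lay far from the other 3, by a gap over range above Dixon's 95% critical value. Chance flags about 1 in 20 such groups. Of the 7 values 4 were of control replicate 2, and it lay low for Pfkm (170.8 CPM, the others 175 to 176) and Pfkp (16.1 CPM, the others 20.2 to 20.7). The same library had the highest log2 ratio of Hk1 to Hk2 among controls (-1.81, the others -2.05 to -2.01) and the lowest of Pfkp to Pfkm (-3.41, the others -3.11 to -3.08). The other 3 values were of knockout replicate 1, which had the highest level of Gpi1 (177.8 CPM, the others 145 to 150.1), Aldoa (1105 CPM, the others 891 to 901) and Ldha (155 CPM, the others 126 to 129). None of the 7 brought the 2 groups into overlap.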

How the results depend on the processing

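With library totals as the only scale 28 of the 32 tested genes rose and 2 fell. Of all calls 96.7% were then higher, against 52.2% with TMM. The log2 fold changes whose sign turned, passing or not, were 0.46 for Slc2a4, 0.58 for Hk2, 0.51 for Hk3, 0.22 for Pfkm, 0.96 for Pfkfb2, 0.72 for Pgam2, 0.44 for Ldhb, 0.38 for Pdk2, 0.47 for Slc16a7, 0.25 for Sord, 0.61 for Mdh1, 0.53 for Epas1, 0.51 for Mlxip, 0.66 for Akt2, 0.052 for Ppara, 0.017 for Egln1, 0.41 for P4ha1, 0.60 for Kdr, 0.66 for Tie1, 0.44 for Ptprc, 0.44 for C1qb and 0.051 for Sox10, and the shift of the median gene by 0.99 is built into that scale. The genes that rose numbered 17 and those that fell 7 with DESeq2, 18 and 7 with no filter, and 17 and 8 with RLE factors, with nuclear genes alone, with a minimum count of 50 and with copies added, the last chosen after seeing the data. Leaving out each library gave 16 to 19 rises and 7 to 8 falls, and 11 to 12 isozyme ratios without overlap. Among genes that did not pass, the sign turned for Pfkfb2 without knockout replicate 2 (0.069, with a range of -0.16 to 0.069 over the libraries left out) and for Pfkfb3 without control replicate 4 (-0.046) or knockout replicate 1 (-0.024). With 5 added to counts 11 ratios did not overlap, and that of Pdk3 to Pdk4, which overlapped, turned to -0.076. With the replicate number as a block 17 rose and 8 fell, and Prkaa2 had an edgeR adjusted p of 0.0556 (0.0633 with a minimum count of 50). Deviations of same-numbered libraries correlated by only -0.0136 to 0.0497. These values cannot tell whether the numbers pair animals, since a pairing need not leave a shared deviation across genes. Aldoc gave 1.47 with no filter (SE 0.59, edgeR adjusted p = 0.0537). Depth limits Aldoc, Eno2 and Hk3, which had at most 28 counts in any library, and Pdk3 in controls (10 to 15 counts).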
